A study of Mus musculus with 4 samples.

Results

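The intermediate filament genes of neurons and of neural progenitors were examined in mouse cultures in which embryonic stem cells had been driven toward motor neurons. The members were chosen by name, as the rows of the deposited table whose gene name is Nefl, Nefm, Nefh, Ina, Prph, Nes or Vim. All 7 had a row, out of 11747 rows in all, and all 7 passed the filter on low values, as every row did. RNA sequencing was done on 4 libraries. The 2 Dox+ libraries came from cultures given 2 µg/mL doxycycline, an antibiotic that here switches on a transgene encoding a transcription factor, and the 2 Dox- libraries came from cultures given vehicle in its place. All cultures, controls included, carry the transgene in the A172LoxP stem cell line, and all were grown as embryoid bodies (floating cell aggregates) with 0.5 µM all-trans retinoic acid and 1 µM purmorphamine, which activates Sonic hedgehog signalling, for 2 days before the 2 to 3 days with doxycycline or vehicle. The labels name 1 engineered line and leave it unsaid whether libraries that share a treatment were grown as separate cultures, so the p-values reflect library-to-library spread that could be technical. The columns of the table are numbered 2 and 8 for Dox+ and 1 and 7 for Dox-, and these numbers name the libraries below.

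Intermediate filaments are the rope-like polymers of the cytoskeleton, and cells change which filament proteins they make as they mature. Dividing neural progenitors make vimentin and nestin. Young neurons replace these with alpha-internexin and the light and medium neurofilament proteins, and the heavy neurofilament protein follows as axons mature. Peripherin joins them in neurons that send axons out of the central nervous system, motor neurons among them. In large axons the neurofilament network sets axon diameter.

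The libraries are compared as normalized counts, gene read counts that the authors had scaled to a common depth. They sum to between 26449555 and 27047458 per library, and the reads behind them were estimated at 22434755 to 30235762. Motor neuron markers were looked up in the table. All 9 genes of the list, Isl1, Mnx1, Chat and Slc18a3 among them, had rows. So did 15 of 20 endoderm, mesoderm and mesenchyme markers, so having a row does not check the tissue label. Because the cultures were measured in bulk, fewer cells of a type and less RNA per cell cannot be told apart in any value below.

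The neuronal filament genes were lower with doxycycline and the progenitor filament genes were not called. Of the 7 members, 4 fell (Prph, Nefm, Nefl and Ina), against 1.79% of all rows called lower and 2.37% called in either direction. None rose, with limma or at an unadjusted p under 0.05, against 0.579% of all rows called higher. Both Dox+ libraries lay below both Dox- libraries in 6 of the 7 members, against 26.5% of all rows. The median log2 change was -1.31 over the 5 neuronal members and -0.06 over Nes and Vim, beside 0.0024 over all rows.

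**Figure D1:**
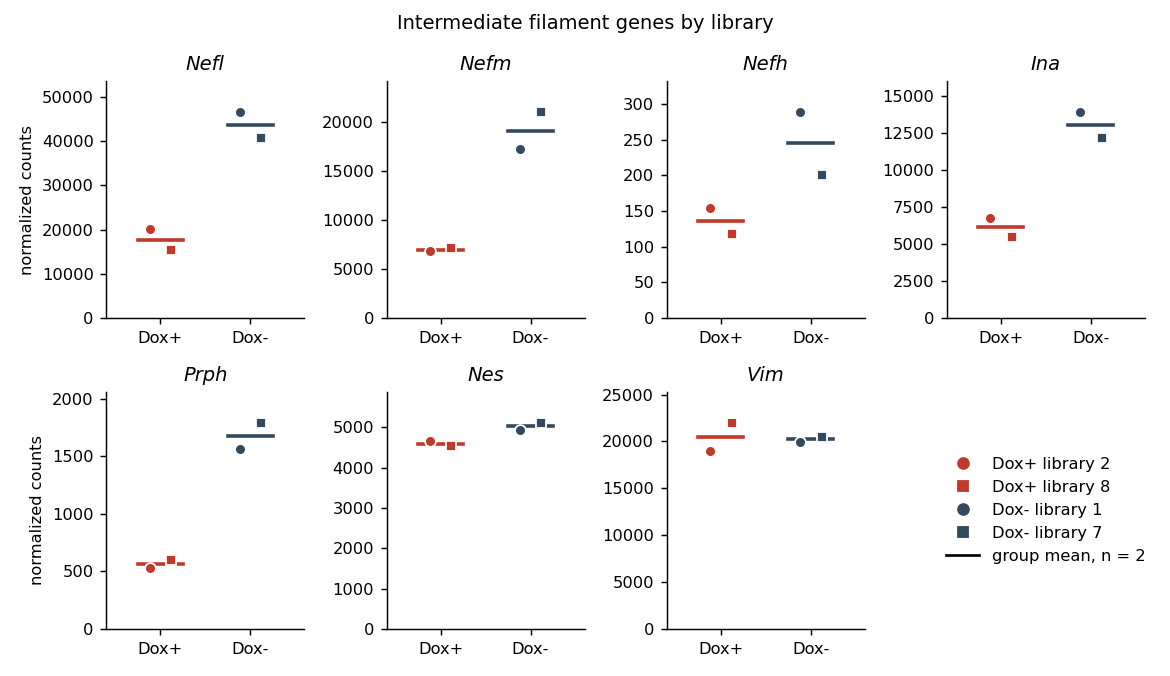
Normalized counts (vertical axes, starting at 0) of the 7 filament genes in each library. Points are libraries and lines are group means of n = 2, with Dox+ left of Dox-. In Nefl, Nefm, Nefh, Ina and Prph the Dox+ points lie well below the Dox- points, in Nes slightly below, and in Vim they overlap.

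The neurofilament triplet is named by the size of its proteins. Nefl encodes the light chain, the subunit that the others need for assembly into filaments. It had 20076 and 15457.5 normalized counts in Dox+ libraries 2 and 8, against 46617 and 40703 in Dox- libraries 1 and 7. The groups were far apart, and the Dox+ mean was 40.7% of the Dox- mean. The log2 change of normalized count + 1 was -1.31 ± 0.13 (SE; limma, adjusted p = 0.0204).

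Nefm encodes the medium chain, which carries a long phosphorylated tail. It had 6803 and 7152 normalized counts in Dox+ libraries 2 and 8, against 17183 and 20994 in Dox- libraries 1 and 7. The Dox+ libraries were close to each other and both were below the Dox- libraries. Nefm fell by 1.45 ± 0.10 on the log2 scale (SE; limma, adjusted p = 0.00832).

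Nefh encodes the heavy chain, the one made latest in development. It had 154 and 118 normalized counts in Dox+ libraries 2 and 8, against 289 and 201 in Dox- libraries 1 and 7. The groups did not overlap, but the Dox- libraries were themselves far apart. The log2 change was -0.83 ± 0.24 with a 95% interval of -1.42 to -0.24 (limma, unadjusted p = 0.0141), and it missed the threshold over all rows (limma, adjusted p = 0.137). These values rest on few reads, estimated at 131 and 134 in Dox+ and at 323 and 187 in Dox-. Pooled by group and scaled to the library totals, these reads gave a Dox+ over Dox- ratio of 0.544, with an exact Clopper-Pearson 95% interval of 0.467 to 0.632 that covers counting error only.

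Ina encodes alpha-internexin, the neuronal filament protein that appears before the triplet in development and co-assembles with it. It had 6766 and 5492 normalized counts in Dox+ libraries 2 and 8, against 13923 and 12164 in Dox- libraries 1 and 7. Both Dox+ libraries were below the lower Dox- library by more than the spread within either group. Ina fell by 1.09 ± 0.12 on the log2 scale (SE; limma, adjusted p = 0.0220). Without the intensity trend in the fit the calls of Nefl and Ina were lost (limma, adjusted p = 0.0577 and 0.0624), while those of Nefm and Prph stood.

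Prph encodes peripherin, the filament protein of motor, sensory and autonomic neurons. Its row joins 3 RefSeq transcripts, so isoforms are not separated. It had 527 and 599.8 normalized counts in Dox+ libraries 2 and 8, against 1562 and 1793 in Dox- libraries 1 and 7. The Dox+ mean was 33.6% of the Dox- mean, the lowest such share among the 7 members. Prph fell by 1.57 ± 0.11 on the log2 scale (SE; limma, adjusted p = 0.00832), which is rank 31 from the most negative of the 11747 rows. Nefm stood at rank 42, Nefl at 61, Ina at 92 and Nefh at 178.

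Nes encodes nestin, the large filament protein used as a marker of neural progenitors. It had 4649 and 4539 normalized counts in Dox+ libraries 2 and 8, against 4936 and 5112 in Dox- libraries 1 and 7. Both Dox+ libraries were lower, by a small margin. The log2 change was -0.13 ± 0.06 with a 95% interval of -0.28 to 0.02 (limma, adjusted p = 0.294).

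Vim encodes vimentin, made by radial glia and neural progenitors and also by mesenchymal and many non-neural cells. It had 18969 and 21996 normalized counts in Dox+ libraries 2 and 8, against 19928 and 20476.5 in Dox- libraries 1 and 7. The Dox+ libraries lay on either side of the Dox- libraries. The log2 change was 0.02 ± 0.08 with a 95% interval of -0.19 to 0.22 (limma, adjusted p = 0.937), so a change of the size measured in the called neuronal members lies outside the interval of either progenitor gene.

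**Figure D2:**
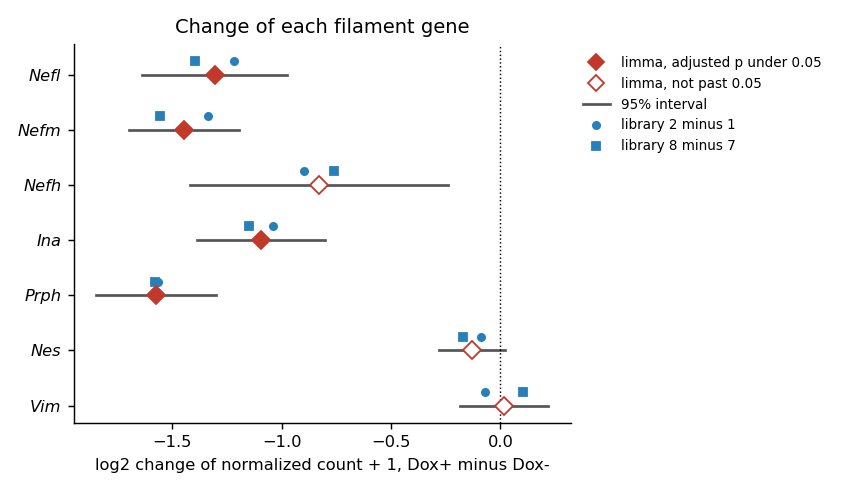
Log2 change of each filament gene, Dox+ minus Dox- (horizontal axis). Diamonds are limma estimates with 95% intervals, filled where the adjusted p is under 0.05, and the blue points above them are library 2 minus 1 and library 8 minus 7. The blue points of the 5 neuronal genes are all left of -0.7, and those of Vim lie on both sides of 0.

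Libraries 1 and 2 stood apart from libraries 7 and 8 in markers of other tissues. The summed normalized counts of the 15 listed endoderm, mesoderm and mesenchyme markers, of 20 in the list, were 232176 and 559083 in Dox+ libraries 2 and 8, against 311487 and 615364 in Dox- libraries 1 and 7. Col4a1, Col4a2, Lamb1 and Sparc, genes of basement membrane and matrix proteins, made up between 94.1% and 96.6% of this sum in each library. The list did not move as one between these libraries. Of the 15 markers 9 were lower in both libraries 1 and 2 than in both 7 and 8 (16.5% of all rows were), and 3 were higher (16.1% of all rows). The 3 were the smooth muscle genes Tagln and Acta2 and the collagen gene Col3a1. Tagln had 2130 and 1082 normalized counts in Dox+ libraries 2 and 8, against 1919 and 943 in Dox- libraries 1 and 7. None of the 15 markers was at 0, and none passed the test (limma), while 2 did at an unadjusted p under 0.05. Taken between the libraries nearest to each other in this sum, the log2 change of Nefl was -1.22 for library 2 minus 1 and -1.40 for library 8 minus 7. For Nefm these values were -1.34 and -1.55, and for Ina -1.04 and -1.15. Prph had -1.57 and -1.58, and Nefh -0.90 and -0.76. Each neuronal member was lower with doxycycline in both comparisons. This sign was fixed beforehand, since both Dox+ libraries lay below both Dox- libraries in each of them, and only the sizes add to that. The values for Nes were -0.09 and -0.17, and those for Vim were -0.07 and 0.10, with opposite signs.

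The 7 listed pluripotency markers, of 8, summed to 4512 and 4320 in Dox+ libraries 2 and 8, against 4993 and 4894 in Dox- libraries 1 and 7, and none passed (limma; none at an unadjusted p under 0.05 either). The RNA-binding gene Lin28a gave the largest part of each of these sums, with 2406 and 2762 normalized counts in Dox+ against 2486 and 3077 in Dox-. Beneath these near-equal sums 5 of the 7 were higher in both libraries 1 and 2 than in both 7 and 8, the reverse of the matrix genes. Dppa5a had 929 and 386 in Dox+ libraries 2 and 8, against 1087 and 475 in Dox- libraries 1 and 7, and the pluripotency factor gene Pou5f1 had 243 and 101 against 307 and 141. The other 2, Lin28a and Klf4, were lower in libraries 1 and 2. Of 10 glial markers 3 were listed, summing to 2411 and 3643 in Dox+ against 3209 and 4962 in Dox-. The part of these other cells in the filament values was not tested.

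The neuronal members differed in how they followed the libraries. Nefl, Ina and Nefh were higher in library 2 than in 8 and higher in library 1 than in 7, while Nefm and Prph had the opposite order in both groups. As a measure of likeness, the Euclidean distance between centred log2 profiles over the 4 libraries was taken. It was smallest between Nefm and Prph (0.16), then between Nefl and Ina (0.22) and between Nes and Vim (0.23). Nefh was closest to Ina (0.36). Nefl and Nefm, whose proteins assemble together, were 0.49 apart.

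**Figure D3:**
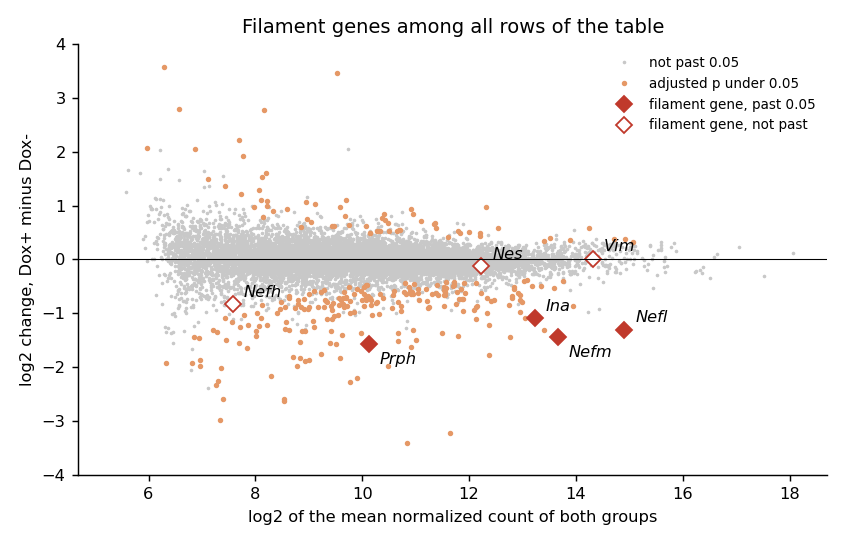
Log2 change, Dox+ minus Dox- (vertical axis), against the log2 of the mean normalized count of both groups (horizontal axis) for the rows of the table; 2 rows beyond the axis limit of 4 are not drawn. Orange points passed the limma test, and diamonds are the filament genes, filled where called. Nefl, Nefm and Ina lie toward the right, at high counts, and Nefh toward the left, at low counts.

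To set levels of different genes side by side, normalized counts were divided by transcript length in kilobases, from GENCODE transcripts paired with the RefSeq accessions of each row. On this per-kilobase scale Nefl had a level of 5940 and 4573 in Dox+ libraries 2 and 8, against 13792 and 12042 in Dox- libraries 1 and 7. It ranked 319 in Dox+ and 120 in Dox- among the 11645 rows with a length. Vim had a level of 8650 and 10030.2 per kilobase in Dox+, against 9087 and 9337 in Dox-. Nefl was therefore below Vim in both Dox+ libraries and above it in both Dox- libraries. Nefh was the least abundant member, with 38.7 and 29.6 per kilobase in Dox+ against 72.3 and 50.3 in Dox-. The order of mean levels per kilobase was Vim, Nefl, Nefm, Ina, Nes, Prph and Nefh in Dox+, and Nefl, Vim, Nefm, Ina, Prph, Nes and Nefh in Dox-. Nefm and Ina overlapped in Dox+, with 2040 and 2145 per kilobase for Nefm and 2088 and 1695 for Ina. In Dox- libraries 1 and 7, Prph (855 and 981) lay just above Nes (806 and 834). The other neighbours in each order did not overlap.

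Summed per kilobase, the 5 neuronal genes made up 52.5% and 44.9% of the filament transcripts of the 7 members in Dox+ libraries 2 and 8, against 71.0% and 69.5% in Dox- libraries 1 and 7. Within the neuronal sum, the makeup varied more between libraries of a group than between groups for Nefl, which took 57.1% and 52.1% in Dox+ and 57.1% and 52.1% in Dox-. Ina took 20.1% and 19.3% of the neuronal sum in Dox+, against 17.8% and 16.2% in Dox-, with no overlap. Prph took 2.77% and 3.74% in Dox+, against 3.54% and 4.24% in Dox-. The shares of Prph overlapped between the groups.

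**Figure D4:**
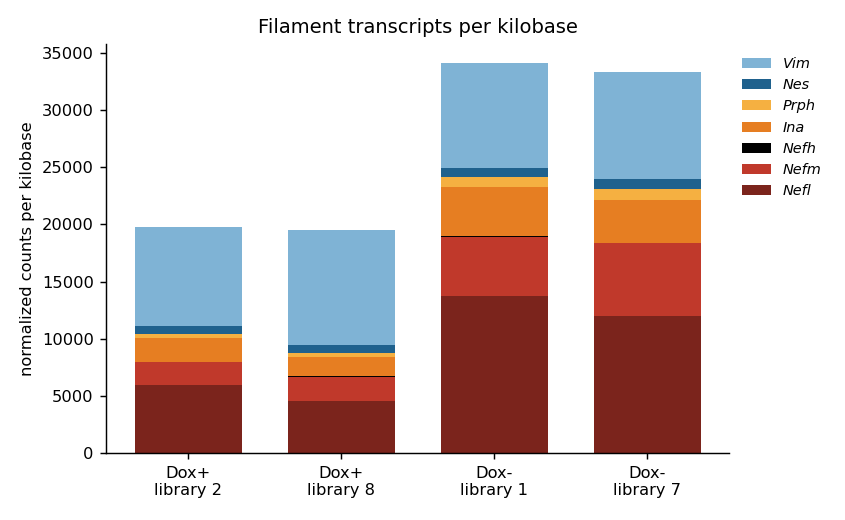
Normalized counts per kilobase of transcript (vertical axis, from 0) of the 7 filament genes, stacked for each library, with the Dox+ libraries left. The blue segments (Vim and Nes) are of similar height in all 4 bars, and the segments of the neuronal genes are shorter in the Dox+ bars.

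Ratios within a library do not depend on the factor by which each library was scaled. Only their difference between groups is read here, since gene lengths shift the ratio itself. The log2 ratio of Nefl to Vim was lower in Dox+ than in Dox- by a difference of -1.32, and that of Nefl to Nes by -1.18. Neither overlapped between groups. Among the neuronal genes, the ratio of Nefl to Nefm differed by 0.14 and overlapped, while that of Nefl to Ina was 1.57 and 1.49 in Dox+ against 1.74 and 1.74 in Dox-, a difference of -0.21 without overlap. With 2 libraries on each side, the smallest p that an exact two-sided permutation test allows is 0.333. The ratios without overlap reached it, and none can pass at 0.05.

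The same measure set the members against neurons in general. The 15 pan-neuronal markers (neuronal RNA-binding, synaptic and adhesion genes) all had rows, with a median log2 change of -0.72. None of them rose and 8 fell (limma), against 1.79% of all rows called lower. Examples are Rtn1 (-0.95 ± 0.07, limma adjusted p = 0.00962), Ncam1 (-0.97 ± 0.11, adjusted p = 0.0220), the synaptic gene Snap25 (-0.70 ± 0.08, adjusted p = 0.0243) and Elavl2 (-1.37 ± 0.18, adjusted p = 0.0301). The synuclein gene Sncb was the only one of the 15 with a value above 0 (1.35 ± 0.25, limma adjusted p = 0.0607), and it was called higher without library 7. Relative to the mean of these markers in the same library, the log2 level of Prph was lower in Dox+ than in Dox- by a difference of -0.97, that of Nefm by -0.85, that of Nefl by -0.71 and that of Ina by -0.50, each without overlap between groups. The value for Nefh was -0.23, with overlap. Nes and Vim had 0.47 and 0.61 on this measure. The marker mean includes Sncb, whose value above 0 makes each negative difference larger in size. The differences without Sncb were not computed. Without library 8 the pan-neuronal count of 8 came to 3, without library 2 to 4 and without the intensity trend to 2.

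Genes of neuronal microtubules, the partner network of neurofilaments in axons, had values below 0 throughout. All 14 genes were listed, with a median of -0.73, and 13 had an unadjusted p under 0.05 (limma), against 21.1% of all rows. After adjustment none rose and 5 fell, against 1.79% of all rows called lower. They were the growth cone gene Gap43 (-1.43 ± 0.11), the stathmin genes Stmn2 (-1.10 ± 0.10) and Stmn4 (-0.73 ± 0.09), Mapt, which encodes tau (-0.83 ± 0.08), and Dcx, which encodes doublecortin (-0.80). The neuron-specific tubulin gene Tubb3 had 18102 and 12679 normalized counts in Dox+, against 33347 and 24521 in Dox-, and did not pass (-0.92 ± 0.21, limma adjusted p = 0.0848). Without library 8, or without the intensity trend, the count of 5 came to 2, Gap43 and Stmn2, and without library 7 to 12. The call of Dcx was also lost under quantile or TMM scaling.

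Motors that carry neurofilaments along axons were lower in part. Of the 8 genes of that list 4 fell (limma), against 1.79% of all rows called lower, and none rose. An unadjusted p under 0.05 (limma) was seen in 7, against 21.1% of all rows. All 8 had values below 0, with a median of -0.36. Kif5a, the neuronal kinesin heavy chain that transports neurofilaments outward, had 4288 and 3766 normalized counts in Dox+ libraries against 7331 and 6495 in Dox- libraries (-0.78 ± 0.09, limma adjusted p = 0.0250). Dync1i1, a neuronal intermediate chain of dynein, the inward motor, had 48.3 and 43.2 against 153 and 204.0 (-1.93 ± 0.25, limma adjusted p = 0.0283). Its Dox+ mean of 45.8 is close to the lowest row mean over all libraries, 40.1, so it rests on few reads. No fit with 1 library left out called Dync1i1. Dctn1, a dynactin subunit, fell by 0.39 ± 0.07 and the kinesin light chain gene Klc1 by 0.52 ± 0.09 (limma, adjusted p = 0.0486 and 0.0493). The ubiquitous kinesin gene Kif5b had a value of -0.06. Without library 8 none of the 4 calls stood, and without library 2 or 1 only that of Kif5a did. Quantile normalization left 2 of the calls and a fit without the trend 1.

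The lists of genes that modify and clear neurofilament proteins held 1 call each, beside 2.37% of all rows called in either direction. Of 13 kinase and phosphatase genes, Cdk5r1, which encodes the p35 activator of the neurofilament kinase Cdk5, fell by 0.80 ± 0.12 (limma, adjusted p = 0.0395), and none rose. The median of that list was -0.04, and Cdk5 itself had a value of -0.21 (limma, adjusted p = 0.269). Of the 13 genes 4 had an unadjusted p under 0.05 (limma), against 21.1% of all rows. Of 9 listed turnover genes the ubiquitin hydrolase gene Uchl1, abundant in neurons, fell by 0.75 ± 0.11 (limma, adjusted p = 0.0405), and none rose. Trim2, a ubiquitin ligase for the light chain, had a value of 0.01. Both calls were lost without library 2 or 8 and without the intensity trend, that of Cdk5r1 also without library 1, and that of Uchl1 also under quantile normalization. Of the genes for proteins that bind neurofilament mRNA, Tardbp (0.07), Hnrnpk (0.01) and Arhgef28 (0.11) did not pass (limma; none of them at an unadjusted p under 0.05). None of the 7 listed filament linkers passed, plectin (Plec, -0.08) and dystonin (Dst, -0.28) among them (limma; none at an unadjusted p under 0.05).

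Other filament genes were not called. Of 11 listed keratin, desmin, synemin and lamin genes none passed and 1 had an unadjusted p under 0.05 (limma), with a median of 0.08. That 1 was Des, the muscle filament gene desmin, with 107 and 137 normalized counts in Dox+ against 74.2 and 73.0 in Dox- (0.71 ± 0.23, limma adjusted p = 0.166). The epithelial keratin genes Krt8 and Krt18 had values of 0.17 and 0.38.

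Markers of the cells that make these filaments were read beside them. Of the 9 motor neuron markers 8 fell (limma), against 1.79% of all rows called lower, and none rose. The median of the 9 was -1.52, and Mnx1 (-2.21 ± 0.16) and Slc18a3 (-1.63 ± 0.08) were among those that fell. Lhx3 stood at 0.55 and was not called (limma, adjusted p = 0.155), though it was called higher without library 1. The list summed to 6847 and 5618 normalized counts in Dox+, against 16177 and 14630 in Dox-. Of the 16 neural progenitor markers, all listed, none fell and 1 rose, against 0.579% of all rows called higher. It was the glutamate transporter gene Slc1a3 (0.52 ± 0.08, limma adjusted p = 0.0413), which no fit with 1 library left out called. Some of those fits called other markers of the list higher. Of the 16 markers 14 had values above 0, with a median of 0.33 and sums of 28475 and 31154 in Dox+ against 23864 and 25026 in Dox-. An unadjusted p under 0.05 (limma), in either direction, was seen in 9 of the 16, against 21.1% of all rows. Relative to the mean of the progenitor markers in the same library, Vim was lower in Dox+ by a difference of -0.32 and Nes by -0.47, without overlap and with an exact permutation p of 0.333 for each. Of the sensory and neural crest markers, Pou4f1 had a value of -1.11 ± 0.54 and did not pass (limma, adjusted p = 0.309). The part of these markers' cells in the filament values was not tested. Without library 8 or without the trend the motor neuron count of 8 came to 5.

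**Figure D5:**
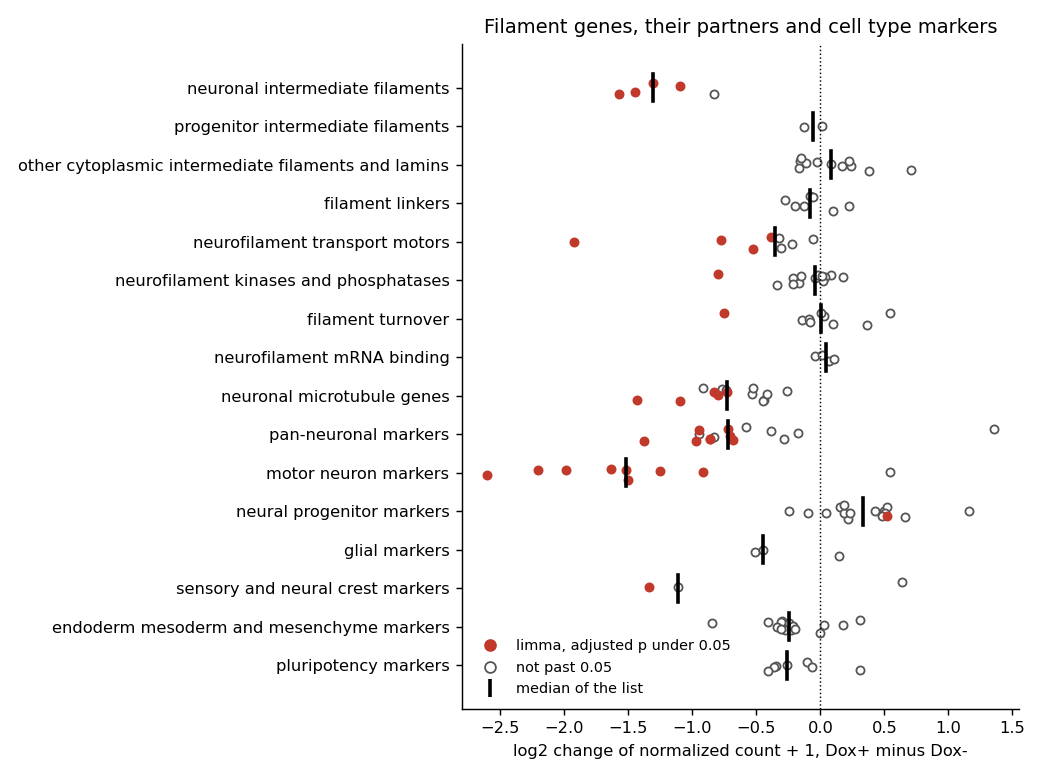
Log2 change, Dox+ minus Dox- (horizontal axis), of every listed gene, by list, with filled points past the limma test and vertical bars at list medians. The neuronal filament list (median -1.31) lies between the pan-neuronal (-0.72) and motor neuron (-1.52) lists, while progenitor filaments, linkers and mRNA-binding genes are near 0.

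Genes elsewhere in the genome with profiles like the neuronal members were found by distance to their mean centred profile. Among 11473 rows with a mean of at least 100, the 5 nearest were Rimbp2, Asap1, Plppr1 (listed as E130309F12Rik), Pde4b and Cadm1, at distances of 0.08 to 0.15 against a median of 1.27. Rimbp2, a presynaptic scaffold gene, had 236 and 219 normalized counts in Dox+ against 590 and 545 in Dox-. Cadm1, an adhesion gene, had 2940 and 2725 against 6203 and 6018. The 5 rows nearest to the mean profile of Nes and Vim were Sar1a, Tmem134, Gga2, a row that joins Cbx6, Nptxr and Npcd, and Txlna, at 0.0029 to 0.014. That profile is almost flat, and the median distance to it over all these rows was only 0.23.

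Position was compared on the RefSeq annotation of GRCm38.p6, which served for gene order only because the table was made on mm9. Nefl and Nefm are neighbours on chromosome 14 with 0 coding genes between them. The nearest listed coding gene beyond Nefl was Dock5 (0.09 ± 0.18) and that beyond Nefm was Slc25a37 (0.26 ± 0.11), and neither passed (limma, adjusted p = 0.834 and 0.253). Slc25a37 lies 7 coding gene places from Nefm, because the nearer genes had no row. Over all 7 members there were 12 such neighbours outside the family, with log2 changes of -0.23 to 0.30. None of these 12 passed (limma), where 2.37% of all rows were called in either direction. At that share 12 genes are too few for the lack of a call to tell anything about position.

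Promoters are shown for the members found in the RefSeq promoter table (GRCm38.p6), to set a called pair, Prph and Ina, beside the uncalled pair, Nes and Vim. The table matched 4 of the 7 members. Each line gives the 150 bases before the annotated start, on the plus strand, with capitals for a TATAAA or TTAAAA match, the letters of TATA-type core promoters.
Prph, chr15:99055024-99055173: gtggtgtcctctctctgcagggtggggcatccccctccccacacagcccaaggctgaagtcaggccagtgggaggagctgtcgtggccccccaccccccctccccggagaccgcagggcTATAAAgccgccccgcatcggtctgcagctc
Ina, chr19:47014531-47014680: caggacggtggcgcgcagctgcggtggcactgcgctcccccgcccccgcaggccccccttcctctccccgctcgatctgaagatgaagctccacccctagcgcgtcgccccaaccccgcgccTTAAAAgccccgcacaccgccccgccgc
Nes, chr3:87970943-87971092: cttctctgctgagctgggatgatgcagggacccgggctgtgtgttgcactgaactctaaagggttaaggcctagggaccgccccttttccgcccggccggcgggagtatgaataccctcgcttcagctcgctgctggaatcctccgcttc
Vim, chr2:13574161-13574310: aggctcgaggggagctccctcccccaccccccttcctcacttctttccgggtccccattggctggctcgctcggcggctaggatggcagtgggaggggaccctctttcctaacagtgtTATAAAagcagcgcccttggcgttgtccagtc
TATAAA begins 31 bases before the start in Prph and 32 before it in Vim, so 1 called and 1 uncalled gene carry it. In Ina a TTAAAA, a spelling added after the sequences were seen, begins 28 bases before the start, and Nes has neither. Over the 250 bases before the start, on the promoter strand alone, 7.59% of the 32851 promoters of the table hold TATAAA and 11% hold TTAAAA. The TAATTA core of homeodomain factors, searched on both strands, is in none of the 4 and in 4.84% of all. The E-box CANNTG occurs 1 time in Ina and in none of the other three, against 66.2% of all promoters. GGGCGG, the GC box, occurs 1 time in Prph, 2 times each in Ina and Nes and 0 times in Vim, against 32.7% of all. Overlaps between different motifs were not removed, and a match or its absence describes these letters only.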

How the data were processed

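Values in the deposited table are a signal for each gene row: read counts that the authors had divided by a factor for each library, to judge by the values. CASAVA, TopHat2, HTSeq, DESeq and the build mm9 appear in the submitters' processing notes without versions or settings. Low values lie within 0.1 of whole multiples of 1 step per column (100% in each), which gave estimated reads. Because hardly any values are near 1 step, these multiples did not qualify as recovered reads, and no count model was used to test genes. The estimates served for the library totals and for the reads of Nefh. The exact interval of its pooled ratio treats them as counts. Strand use in counting is not stated in these sources.

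Column letters gave each library its group. The column numbers are not the labels' replicate numbers, so a column stands for its group and not for a given sample. Values were tested as log2(normalized count + 1) for rows with a mean of at least 10 (all 11747) with limma 3.58.1 in R 4.3.3, with an intensity trend, two-sided, and Benjamini-Hochberg adjustment over all rows at 0.05. Values after ± are SE. The fit was first tested on simulated data. Members and the 16 lists (164 genes, 141 listed, 7 of them matched by accession) were chosen with earlier results of these data known. Lists are described by counts and medians, since no list test was run. The rule for named genes takes all members, up to 4 genes of each list with the smallest p, others past the test, and the 5 rows most like each class, and the text draws on these. Sncb, Tubb3, Lhx3, Cdk5, Trim2 and Kif5b were named by role or after their values were seen, and neighbouring genes by position. Alternatives were pseudocounts, filters, scaling, the empirical Bayes settings, each library left out, and a replicate block. Protein sequences were not analysed here, and the induced transgene and some list genes are not reported here. Other software was matplotlib 3.10.9, scipy 1.17.1, numpy 2.4.6 and pandas 2.3.3 under Python 3.11.15.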

Additional observations from a re-analysis of the deposited data

How the results depend on the processing

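The count of members called lower was 4, and it was 2 without the intensity trend, where Nefl (-1.31, limma adjusted p = 0.0577) and Ina (-1.09, adjusted p = 0.0624) missed the threshold. It stayed at 4 whichever library was left out. The changes with 1 library left out ranged from -1.49 to -1.12 for Nefl, -1.59 to -1.30 for Nefm, -1.09 to -0.57 for Nefh, -1.24 to -0.94 for Ina, -1.67 to -1.47 for Prph, -0.15 to -0.10 for Nes and -0.091 to 0.12 for Vim. Vim, near 0, was also at -0.0060 under quantile normalization. Over all rows 278 were called, 68 higher and 210 lower. These counts were 105 (27 and 78) without the trend, and 419 and 132 higher with robust empirical Bayes. With 1 library left out, 44 to 494 rows were called, 2 to 156 higher and 42 to 338 lower. Such fits leave 1 library in a group, assumed to vary like the others.

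The column numbers pair no samples by the labels. With a replicate block of library 1 with 2 and 7 with 8, the limma fit called 3508 rows (1636 higher and 1872 lower) and Nefh was called (-0.83, adjusted p = 3.05e-06). That fit has 1 residual degree of freedom and an infinite prior, so its p-values rest almost wholly on the common trend. Deviations from the group means correlated at 0.63 between libraries 1 and 2. With 2 libraries in each group the value for 7 and 8 is necessarily the same, so this is 1 value and not 2. The log2 ratio of Nefl to Nefm, Dox+ minus Dox-, ranged from -0.10 to 0.38 with 1 library left out, and that of Prph to Nefl from -0.55 to 0.016, so neither has a settled sign. Depth limits Nefh most among the members.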
